A study of Homo sapiens with 6 samples.

Results

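Transcripts of 51 genes of the lysosome were examined among the 30716 genes measured in SNU16, a human gastric carcinoma cell line. The 51 genes were chosen by name, with earlier results of these data known. They encode 28 hydrolases and their cofactors, 6 proteins of the lysosomal membrane, 15 subunits of the proton pump of the lysosome (the V-ATPase), and the transcription factors TFEB and TFE3. In the ENO1-knockdown group (shENO1, 3 libraries) the cells had received by lentivirus a short hairpin RNA against ENO1, the gene of the glycolytic enzyme alpha-enolase. The control group (shcon, 3 libraries) carried a control hairpin. The growth medium is given as the same for all libraries, and a short puromycin treatment was used to select infected cells. The labels name neither the hairpin sequence nor whether a group was a pool of cells or 1 clone, so that a result of the hairpin other than loss of ENO1 cannot be told apart from it. The comparison asks how the lysosomal transcripts stood in ENO1-knockdown cells.

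Lysosomes are acidic organelles in which proteins, glycans, sulfated sugars and lipids from endocytosis and autophagy are broken down by hydrolases that work at low pH. The V-ATPase keeps the lumen acidic: its membrane-bound V0 part carries protons, and its cytosolic V1 part hydrolyses ATP to drive this transport. Lysosomes also form the platform on which mTORC1, the nutrient-sensing kinase complex, is activated, and TFEB and TFE3, which mTORC1 keeps in the cytoplasm by phosphorylation, induce many lysosomal genes through the CLEAR promoter element.

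Levels are given in FPKM, which count the fragments on each kilobase of exon relative to the depth of the library. They do not correct for base composition or for differences in the make-up of libraries. Summed over all genes, they came to 270235 to 279043 FPKM in shENO1 libraries and 289225 to 298263 FPKM in shcon libraries. The main test used the values without rescaling. ENO1 itself, which checks the labels, was at 99.5, 84.9 and 91.1 FPKM in shENO1 cells, against 323, 312 and 386 FPKM in shcon cells. Its log2 fold change was -1.88 (standard error 0.11, adjusted p = 0.000425). All log2 fold changes are differences of mean log2(FPKM + 1), shENO1 minus shcon, tested with limma over the 15181 genes that averaged 0.5 FPKM or more, and a gene counts as called when its adjusted p is under 0.05. They understate the change of genes near or below 1 FPKM. The libraries held 15572374 to 16963874 fragments, estimated from the steps of the values, so that 1 fragment on 1 kilobase of exon was worth 0.05895 to 0.06422 FPKM. The labels do not say whether the 3 libraries of a group came from separate cultures, and p-values measure only the spread between these libraries, which may be technical. Fewer cells of a kind and less RNA per cell cannot be told apart in such bulk samples. Of the 6 epithelial markers looked up, the keratins KRT8 and KRT18 carried nearly all of the signal, while EPCAM was at 0.819 to 1.59 FPKM and KRT19 was at 0 in all libraries but 1, where it was at 0.0515 FPKM. The summed epithelial markers were at 197 to 229 FPKM in shENO1 cells, against 416 to 545 FPKM in shcon cells, with KRT8 and KRT18 called lower. EPCAM (log2 fold change -0.29) and CDH1 (-0.21) were not called. CLDN4 went the other way, with means of 8.11 FPKM in shENO1 and 7.18 FPKM in shcon cells (0.18), and was not called either. The 4 fibroblast markers in the table summed to 14.2 to 14.9 FPKM in shENO1 cells, against 21.5 to 28.3 FPKM in shcon cells, with DCN and LUM called lower and COL3A1 near 0, and the endothelial marker CDH5 was at 3.82 to 4.95 FPKM in shENO1 cells, against 9.24 to 16.3 FPKM in shcon cells, with PECAM1 and VWF near 0. Leukocyte markers summed to at most 1.97 FPKM, with PTPRC at or near 0, and macrophage markers to at most 0.536 FPKM. CDH5 was called lower too. The part of these marker levels in the lysosomal results was not tested. Among the libraries, shcon replicate 3 stood apart for many lysosomal genes and shENO1 replicate 1 lay nearest to shcon for GC-rich genes, and counts without them are given.

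More lysosomal transcripts were lower than higher in ENO1-knockdown cells. Of the 51 genes, 50 were tested, and 13 were called lower, 2 were called higher and 35 did not pass. The 13 lower genes encode the proteases CTSD, CTSZ, CTSH and CTSA, the glycosidases NAGLU, GAA and FUCA1, the sulfatase ARSA, the hydrolase cofactor PSAP, the membrane proteins CD63 and LAMP1, and the V0 subunits ATP6V0D1 and ATP6V0B. The 2 higher genes were LAMP2, of the lysosomal membrane, and ATP6V1C1, of the V1 part. The share called lower was 26.0% of the lysosomal genes, against 14.4% of all genes tested, and the share called higher was 4.0%, against 15.1% (29.5% of all genes were called in either direction). The median log2 fold change was -0.13, against 0.03 over all genes. With 1 library left out, 4 to 17 of the lysosomal genes were lower and 0 to 6 higher, with 4 lower and 0 higher both without shENO1 replicate 2 and without shcon replicate 1. Over all genes tested the same fits gave 756 to 2799 lower and 753 to 3028 higher. The only gene not tested was CLN3, a membrane protein lost in juvenile neuronal ceroid lipofuscinosis, which was listed at 0.119, 0.252 and 0.170 FPKM in shENO1 cells and at 0.144, 0.159 and 0.172 FPKM in shcon cells. The 3 shENO1 values lay wholly below the 3 shcon values for 18 of the 50 tested genes and wholly above them for 3, against 21.5% and 25.0% of all genes tested (46.6% together).

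**Figure D1:**
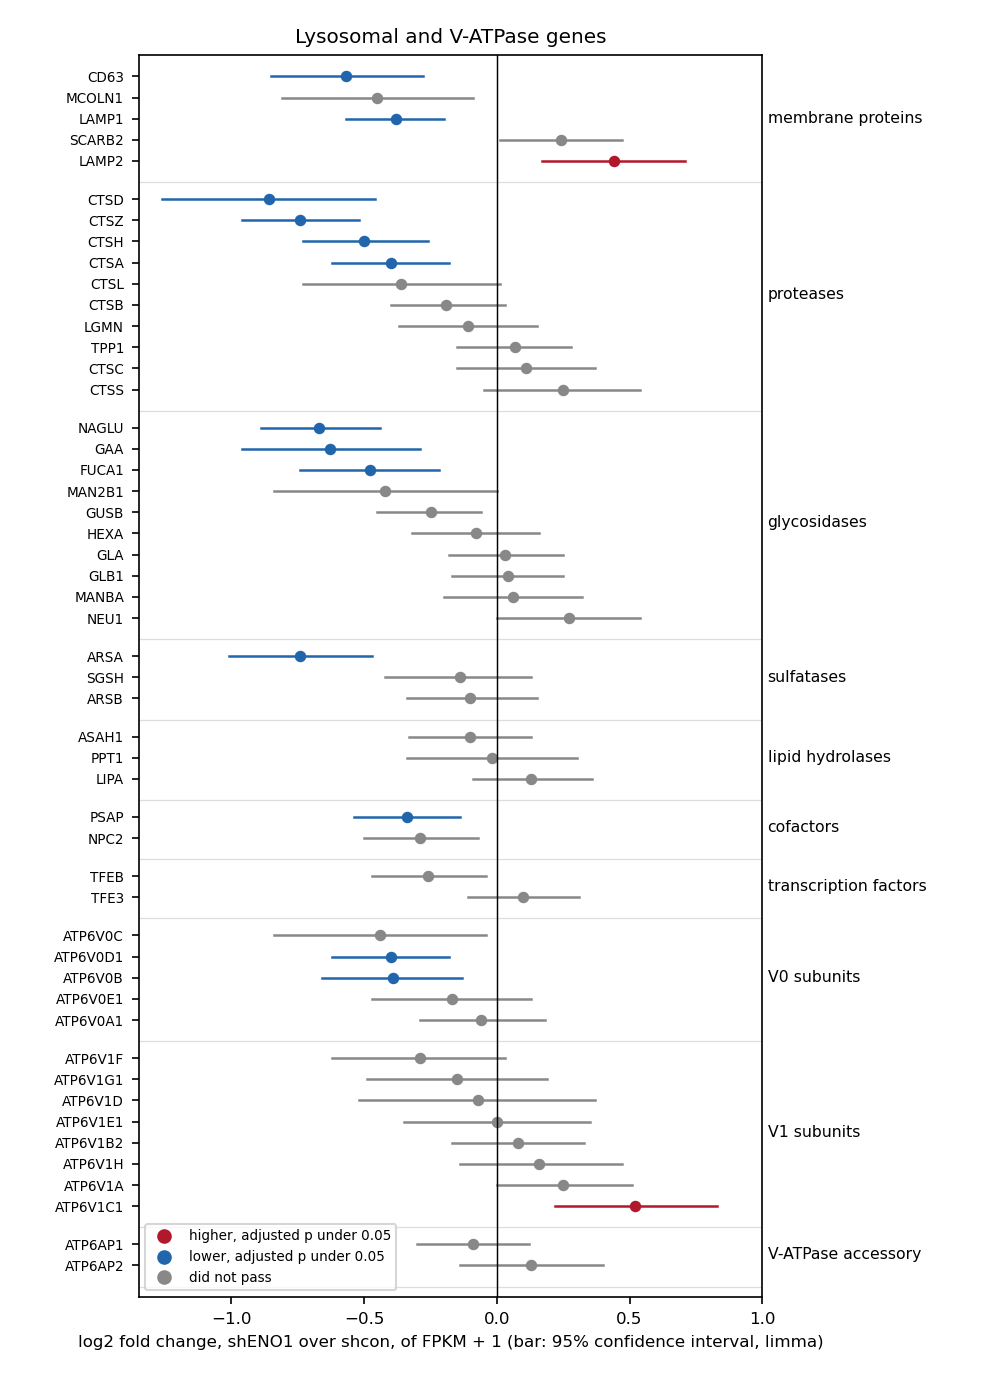
Log2 fold changes of shENO1 over shcon on the log2(FPKM + 1) scale (x axis) for the 50 lysosomal genes tested, grouped by role (y axis), with points for the estimate and bars for its 95% confidence interval from limma. The 2 genes called higher are red, the 13 called lower are blue and the 35 that did not pass are grey, and CTSD lies lowest at -0.86 and ATP6V1C1 highest at 0.52.

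These calls went along with the base composition of the transcripts. Over the 7441 genes that averaged 5 FPKM or more, the log2 fold change had a Spearman correlation of -0.71 with the GC content of the transcripts, and over the 50 lysosomal genes one of -0.76, given as a description of genes that share their libraries. The median GC content was 57.6% for the lysosomal genes called lower, 49.7% for those that did not pass and 39.2% for the 2 called higher. Among genes of at least 55% GC, 8 of 18 lysosomal genes (44.4%) were called lower, against 35.6% of 4454 genes in all, with medians of -0.40 and -0.30. From 45% to 55% GC, 5 of 18 lysosomal genes (27.8%) were called lower, against 9.52% of 5390, with medians of -0.13 and 0.03. Below 45% GC, 2 of 14 lysosomal genes (14.3%) were called higher, against 30.7% of 5187, and their median was 0.13, against 0.26. When smooth trends over GC content and over the length of the exons were removed from each library (called the GC and length trends), 7 lysosomal genes were called lower and 1 higher. The background was then 9.73% lower and 11.4% higher of the 15031 genes with both values (21.1% in either direction). The median log2 fold change of the lysosomal genes was -0.13 both with and without the trends, against 0.02 over all genes without them. Without the trends it was -0.15 for the hydrolases and cofactors and -0.08 for the V-ATPase subunits. LAMP1, CD63, CTSA, CTSH and CTSZ stayed lower, ASAH1 and NPC2 were added, and TFE3 was called higher, while the calls of the other 8 lower genes and of LAMP2 and ATP6V1C1 were lost. With the replicate number as a block besides, 5 of the 50 lysosomal genes were lower and 1 higher, against 1391 lower and 1740 higher of the 15031 genes. Removing such a trend would also remove any biology that follows GC content or length, and which part of the lower levels belongs to either was not tested.

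**Figure D2:**
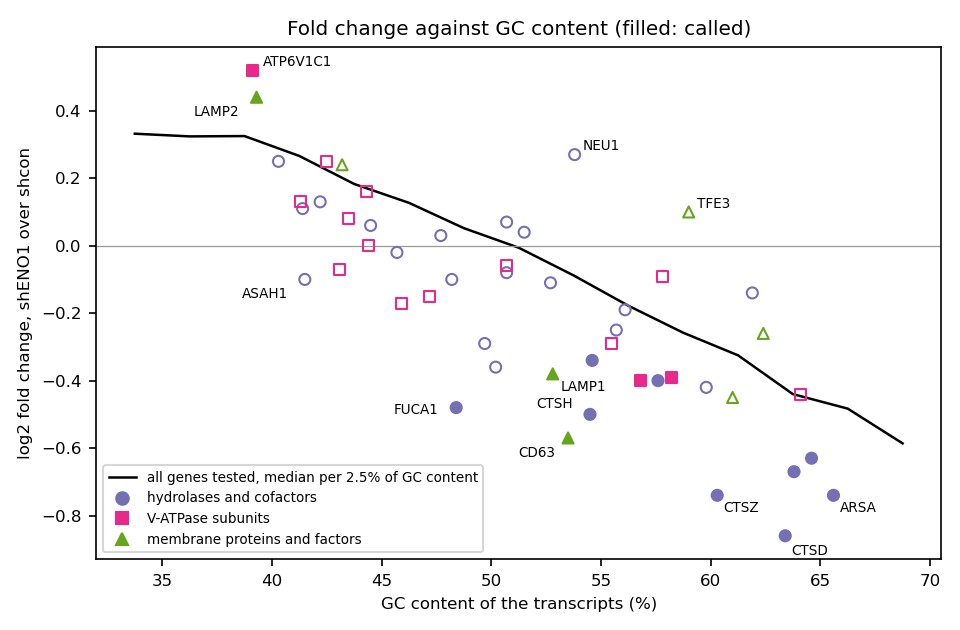
Log2 fold change of shENO1 over shcon on the log2(FPKM + 1) scale (y axis) against the GC content of the transcripts in percent (x axis) for the 50 lysosomal genes, with filled symbols for genes called and the black line for the median of all genes tested in steps of 2.5% GC that hold at least 50 genes. The line lies at 0.33 at 38.75% GC and at -0.44 at 63.75% GC, and CTSH, CD63, FUCA1 and ASAH1 lie below it while NEU1 and TFE3 lie above it.

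The genes of the transcription factors were not called. TFEB was at 1.81, 1.65 and 1.84 FPKM in shENO1 cells, against 2.31, 2.30 and 2.31 FPKM in shcon cells, and the groups did not overlap (log2 fold change -0.26, adjusted p = 0.0717). On whole fragments recovered from the FPKM values, 188 to 258 per library, limma-voom called it lower (adjusted p = 0.0478), and without the GC and length trends its log2 fold change was 0.13 and not called. TFE3 was at 32.4, 28.3 and 28.3 FPKM in shENO1 cells, against 27.3, 26.5 and 28.7 FPKM in shcon cells, with overlap (0.10, adjusted p = 0.413). Its transcripts have 59.0% GC, and without the trends it was called higher (0.40, adjusted p = 0.00583). MITF, the third expressed member of the family, had 9.65, 10.6 and 10.6 FPKM in shENO1 cells, against 11.2, 11.8 and 12.9 FPKM in shcon cells, and was not called (-0.20, adjusted p = 0.135), while without the trends it was called lower (-0.48, adjusted p = 0.00242).

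Because TFEB and TFE3 act through the CLEAR element, the E-box CACGTG with GT before and AC after it, these letters were looked up in the RefSeq promoters of GRCh38.p14, taken from 250 bases before to 50 after each gene start. The 2 motifs read the same on both strands, and each CLEAR element contains an E-box. Promoters were at hand for 35 of the 51 genes. An E-box stood in 11 of the 35 (31.4%), against 7.26% of 35116 promoters, and the full CLEAR element in 3 of the 35 (8.57%), against 0.353%. An E-box was found in 7 of the 10 promoters of genes called lower and in 3 of the 24 of genes that did not pass, besides that of CLN3. The share among all genes called lower was not looked up, and the 35116 promoters were not limited to genes tested. Transcripts of the lower lysosomal genes also had more GC, with a median of 57.6% against 49.7% for those that did not pass. The part of GC content in this split was not tested. The windows of 30 bases below show a part of these E-boxes, with 2 of the 6 of LAMP1 and 1 of the 2 of ATP6V0B. They run 5′ to 3′ on the strand of the gene, and capitals mark the unbroken run around the E-box that matches the CLEAR element. Of the lower genes, GAA held the full element, with E-boxes that begin 76 and 31 bases before its start, and the others held it in part.
GAA, chr17:80101493-80101522, plus strand: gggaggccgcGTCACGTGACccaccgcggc
GAA, chr17:80101538-80101567, plus strand: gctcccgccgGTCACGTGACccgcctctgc
CTSA, chr20:45891281-45891310, plus strand: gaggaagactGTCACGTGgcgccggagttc
CTSA, chr20:45891298-45891327, plus strand: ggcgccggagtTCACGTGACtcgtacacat
CTSD, chr11:1763957-1763986, minus strand: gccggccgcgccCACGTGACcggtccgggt
LAMP1, chr13:113297035-113297064, plus strand: accaggccggGTCACGTGggtccagggtca
LAMP1, chr13:113297199-113297228, plus strand: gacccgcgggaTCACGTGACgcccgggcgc
CD63, chr12:55729172-55729201, minus strand: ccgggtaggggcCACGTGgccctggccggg
ATP6V0B, chr1:43974891-43974920, plus strand: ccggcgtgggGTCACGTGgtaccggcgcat
ATP6V0D1, chr16:67481199-67481228, minus strand: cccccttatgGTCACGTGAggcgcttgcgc

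Genes that did not pass held such letters too, and they are shown to set beside the lower genes. ATP6V1G1 held the full element, with an E-box that begins 58 bases before its start. In MCOLN1 the E-box of the full element begins 14 bases before the start and another, with 9 letters of it, 41 bases before it, and only the other is shown, and NEU1 held an E-box with 7 letters.
ATP6V1G1, chr9:114587699-114587728, plus strand: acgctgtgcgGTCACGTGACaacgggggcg
MCOLN1, chr19:7522571-7522600, plus strand: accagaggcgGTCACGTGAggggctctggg
NEU1, chr6:31862930-31862959, minus strand: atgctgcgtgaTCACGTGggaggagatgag

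LAMP1 had the most E-boxes of the 35 promoters, with 6. A match says only that these letters are present, and no binding was measured here. The promoters of HEXA, CTSB, NAGLU, LAMP2, LGMN, MANBA, PSAP, ASAH1, CTSS, ATP6V1A, ATP6V0E1, ATP6V1H, ATP6V1B2, SGSH, ATP6V1C1 and ARSA were not analysed here.

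**Figure D3:**
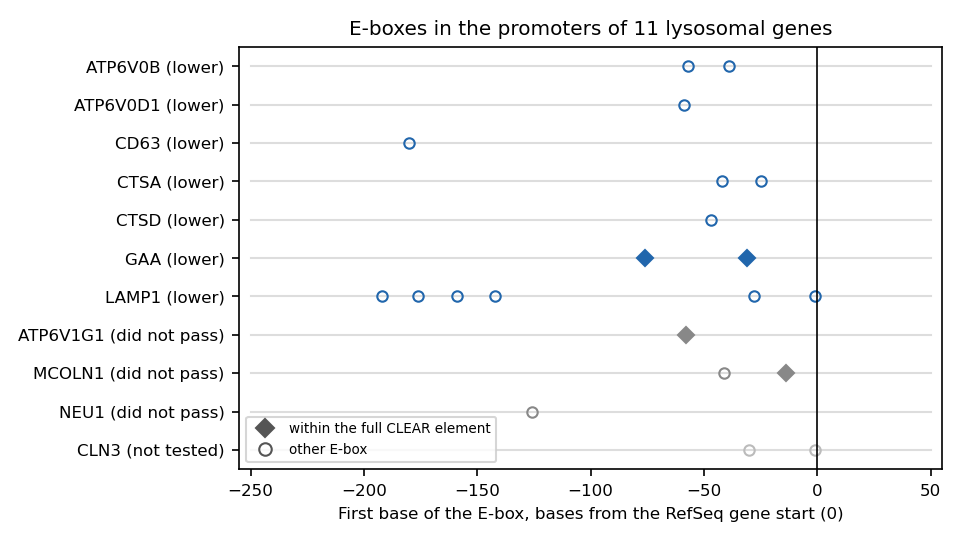
Position of the first base of each E-box, in bases from the RefSeq gene start at 0 (x axis), in the promoters of the 11 lysosomal genes that hold one (y axis), with diamonds for E-boxes within a full CLEAR element and circles for the others. The 7 genes called lower (blue) stand above the 3 that did not pass and CLN3, which was not tested (grey), and LAMP1 holds 6 E-boxes.

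Among the hydrolases and cofactors, 9 of 28 were called lower (32.1%, against 14.4% of all genes tested) and 0 higher by limma on log2(FPKM + 1), with a median log2 fold change of -0.16. At an unadjusted p under 0.05 there were 12 of the 28, near the 43.0% of all genes tested. Of the 12 the gene of sialidase, NEU1, was the only 1 with a positive fold change. On the recovered fragments limma-voom likewise called none higher, against 2701 of 15174 genes in all. Summed over the 28 genes, the level was 1032, 953 and 963 FPKM in shENO1 libraries and 1203, 1185 and 1288 FPKM in shcon libraries, without overlap, and PSAP made up most of it. The FPKM sum over all genes was likewise lower in each shENO1 library than in each shcon library.

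Of the 10 proteases 4 were lower (40.0%, against 14.4% of all genes tested) and 6 did not pass. Without the GC and length trends 3 of them were lower, against 9.73% of all genes. CTSD, the aspartic protease cathepsin D, on chromosome 11 from 1752752 to 1764573 of GRCh38, was at 27.6, 20.2 and 21.0 FPKM in shENO1 cells, against 40.3, 35.2 and 52.5 FPKM in shcon cells. Each shENO1 library lay below each shcon library, and the mean was 53.8% of the shcon mean (log2 fold change -0.86, standard error 0.17, adjusted p = 0.011). Without the GC and length trends its log2 fold change was -0.33 and the call was lost (adjusted p = 0.174), as it was without shENO1 replicate 2 (adjusted p = 0.0509). In GENCODE 29, 1304 of the 3126 exon bases of CTSD are shared with the gene AC068580.4, which was listed at 0.178 to 0.378 FPKM, and how shared fragments were assigned is not given in the sources used here. CTSZ, the carboxypeptidase cathepsin Z, was at 9.85, 8.32 and 8.60 FPKM in shENO1 cells, against 16.6, 14.8 and 15.2 FPKM in shcon cells. Its groups lay far apart (-0.74, standard error 0.10, adjusted p = 0.00399), and it stayed lower when each library was left out in turn and without the trends (-0.23, adjusted p = 0.0268), though not without the trends and with the replicate block (adjusted p = 0.054). CTSH, a cysteine protease that acts mainly as an aminopeptidase, was at 2.21, 2.04 and 2.18 FPKM in shENO1 cells, against 3.84, 3.44 and 3.07 FPKM in shcon cells (-0.50, adjusted p = 0.0115). CTSA, which protects beta-galactosidase and sialidase in a complex besides acting as a carboxypeptidase, was at 20.6, 18.0 and 17.1 FPKM in shENO1 cells, against 25.7, 24.1 and 24.3 FPKM in shcon cells (-0.40, adjusted p = 0.0187). Both genes had separate groups and kept their calls without the trends, CTSH at -0.40 and CTSA at -0.19, the second of them not with the block added (adjusted p = 0.0662). The call of CTSH was lost without shENO1 replicate 2 (adjusted p = 0.0567) or shcon replicate 1 (adjusted p = 0.0548), and that of CTSA without either of these (adjusted p = 0.0849 and 0.0802) or without shENO1 replicate 3 (adjusted p = 0.0827).

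The other 6 proteases did not pass. CTSL, an endopeptidase that matures other lysosomal enzymes, had 16.2, 13.4 and 14.5 FPKM in shENO1 cells, against 17.3, 16.2 and 24.7 FPKM in shcon cells (-0.36, adjusted p = 0.125), and CTSB, an abundant cysteine protease, had 14.4, 13.2 and 13.2 FPKM in shENO1 cells, against 15.3, 14.6 and 17.0 FPKM in shcon cells (-0.19, adjusted p = 0.161). Their groups did not overlap, though for CTSL shENO1 replicate 1 and shcon replicate 2 were the same to the digits given. In both genes the highest value was that of shcon replicate 3. LGMN, the asparaginyl endopeptidase legumain, had a log2 fold change of -0.11, TPP1, a tripeptidyl peptidase, of 0.07, CTSC, a dipeptidyl peptidase, of 0.11, and CTSS of 0.25. The 95% confidence interval of TPP1 ran from -0.15 to 0.28, and those of the other 3 also spanned 0.

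Of the 10 glycosidases 3 were called lower and 7 did not pass. NAGLU, which removes N-acetylglucosamine from heparan sulfate, was at 6.62, 5.84 and 6.15 FPKM in shENO1 cells, against 10.7, 9.40 and 11.3 FPKM in shcon cells. The groups were clearly separate (-0.67, standard error 0.10, adjusted p = 0.00489), and the call held with any 1 library left out but not without the trends (-0.11, adjusted p = 0.49). GAA, the acid alpha-glucosidase that degrades glycogen in lysosomes, was at 7.11, 5.21 and 5.05 FPKM in shENO1 cells, against 10.4, 9.98 and 8.03 FPKM in shcon cells. It was lower at -0.63 (adjusted p = 0.0171), with shENO1 replicate 1 closest to the shcon libraries. Leaving out shENO1 replicate 2, shENO1 replicate 3, shcon replicate 1 or shcon replicate 2 ended the call, with adjusted p = 0.0732, 0.0666, 0.0684 and 0.0519, and without the trends the log2 fold change was -0.15 (adjusted p = 0.0928). FUCA1, the alpha-L-fucosidase, was at 7.83, 9.95 and 7.92 FPKM in shENO1 cells, against 13.2, 11.9 and 11.7 FPKM in shcon cells (-0.48, adjusted p = 0.0176). With 48.4% GC it had the lowest GC content of the 13 lower genes. Its log2 fold change of -0.39 without the trends missed the threshold (adjusted p = 0.0763), as did the test without shENO1 replicate 3 (adjusted p = 0.072) or shcon replicate 1 (adjusted p = 0.074).

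GUSB, the beta-glucuronidase, was at 28.1, 24.5 and 25.8 FPKM in shENO1 cells, against 32.1, 31.1 and 30.7 FPKM in shcon cells, and did not pass (-0.25, adjusted p = 0.0579). MAN2B1, the lysosomal alpha-mannosidase, was at 7.15, 6.63 and 6.09 FPKM in shENO1 cells, against 11.7, 10.0 and 6.55 FPKM in shcon cells (-0.42, adjusted p = 0.12), and shcon replicate 3 lay within the range of the shENO1 libraries. With the replicate number as a block, GUSB (adjusted p = 0.0363) and MAN2B1 (adjusted p = 0.0444) were called lower. NEU1 had 8.16, 9.32 and 9.06 FPKM in shENO1 cells, against 6.83, 6.35 and 8.42 FPKM in shcon cells (0.27, adjusted p = 0.113). HEXA, GLA, GLB1 and MANBA, which remove hexosamine, galactose and mannose residues, had log2 fold changes from -0.08 to 0.06.

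ARSA, the arylsulfatase that degrades sulfatide, was at 4.02, 3.90 and 2.98 FPKM in shENO1 cells, against 7.23, 6.72 and 6.20 FPKM in shcon cells. Its mean was 54.1% of that in shcon cells (-0.74, standard error 0.12, adjusted p = 0.00584), and the groups did not overlap. ARSA transcripts have the highest GC content of the 13 lower genes, 65.6%, and its call held with any 1 library left out, while without the trends its log2 fold change was -0.11 (adjusted p = 0.472). The other sulfatases, SGSH and ARSB, which act on heparan sulfate and dermatan sulfate, had -0.14 and -0.10 and did not pass. None of the 3 lipid hydrolases was called by limma, and 0 of them had an unadjusted p under 0.05: the acid ceramidase ASAH1 had -0.10, the thioesterase PPT1 -0.02 and the acid lipase LIPA 0.13. ASAH1 was at 6.74, 6.27 and 6.97 FPKM in shENO1 cells, against 6.61, 7.01 and 8.13 FPKM in shcon cells. Its transcripts have 41.5% GC, and it was called lower without the trends (-0.51, adjusted p = 0.0214).

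PSAP encodes the precursor of the saposins, which present sphingolipids to their hydrolases, and had by far the highest level of the 51 genes. It was at 692, 628 and 639 FPKM in shENO1 cells, against 816, 809 and 859 FPKM in shcon cells. The groups were separate and PSAP was called lower (-0.34, standard error 0.09, adjusted p = 0.0226), although its log2 fold change was 0.01 after quantile normalization (adjusted p = 0.931) and -0.14 without the trends (adjusted p = 0.132). Leaving out shENO1 replicate 2, shENO1 replicate 3, shcon replicate 1 or shcon replicate 2 ended its call too, with adjusted p = 0.102, 0.0967, 0.0853 and 0.0525. NPC2, which hands cholesterol to NPC1 for export, was at 32.4, 30.8 and 28.7 FPKM in shENO1 cells, against 36.9, 35.4 and 40.5 FPKM in shcon cells. Its groups did not overlap, and it missed the threshold narrowly (-0.29, adjusted p = 0.0504) and was called lower without the trends (-0.21, adjusted p = 0.0472).

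The membrane proteins differed in direction. LAMP1, a heavily glycosylated protein that lines the lysosomal membrane, was at 44.9, 41.3 and 41.3 FPKM in shENO1 cells, against 54.9, 55.2 and 56.8 FPKM in shcon cells. The libraries of a group lay close together, and LAMP1 was lower at -0.38 (standard error 0.08, adjusted p = 0.0129) and at -0.35 without the trends (adjusted p = 0.00537). Its relative LAMP2, which also serves chaperone-mediated autophagy, was at 22.2, 25.6 and 25.5 FPKM in shENO1 cells, against 15.9, 16.9 and 20.7 FPKM in shcon cells. LAMP2 was higher at 0.44 (standard error 0.12, adjusted p = 0.0278), with shENO1 replicate 1 and shcon replicate 3 nearest to each other. Without the trends the log2 fold change of LAMP2 was 0.06 (adjusted p = 0.439). With 1 library fewer the call of LAMP1 was lost in 3 of 6 cases, with adjusted p up to 0.0711, and that of LAMP2 in 4 of 6, with adjusted p from 0.0824 to 0.108. The lost calls of LAMP1 were those without shENO1 replicate 2, shENO1 replicate 3 or shcon replicate 1, and for LAMP2 also that without shcon replicate 2.

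CD63, a tetraspanin of lysosomes and exosomes, was at 128, 109 and 125 FPKM in shENO1 cells, against 175, 158 and 209 FPKM in shcon cells. Every shENO1 library lay below every shcon library (-0.57, standard error 0.12, adjusted p = 0.0142), and CD63 was called lower without the trends as well (-0.36, adjusted p = 0.0233). Its call was lost without shENO1 replicate 2 (adjusted p = 0.066) or shcon replicate 1 (adjusted p = 0.0504). MCOLN1, the calcium channel through which lysosomes signal to TFEB, was at 7.17, 5.27 and 5.06 FPKM in shENO1 cells, against 9.29, 8.92 and 6.75 FPKM in shcon cells, and the groups overlapped (-0.45, adjusted p = 0.0628). It was called lower with the replicate block (adjusted p = 0.0172), while its log2 fold change was -0.06 without the trends. SCARB2, the receptor that carries glucocerebrosidase to lysosomes, had 8.26, 9.63 and 10.0 FPKM in shENO1 cells, against 7.71, 7.36 and 8.04 FPKM in shcon cells, and did not pass (0.24, adjusted p = 0.099).

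**Figure D4:**
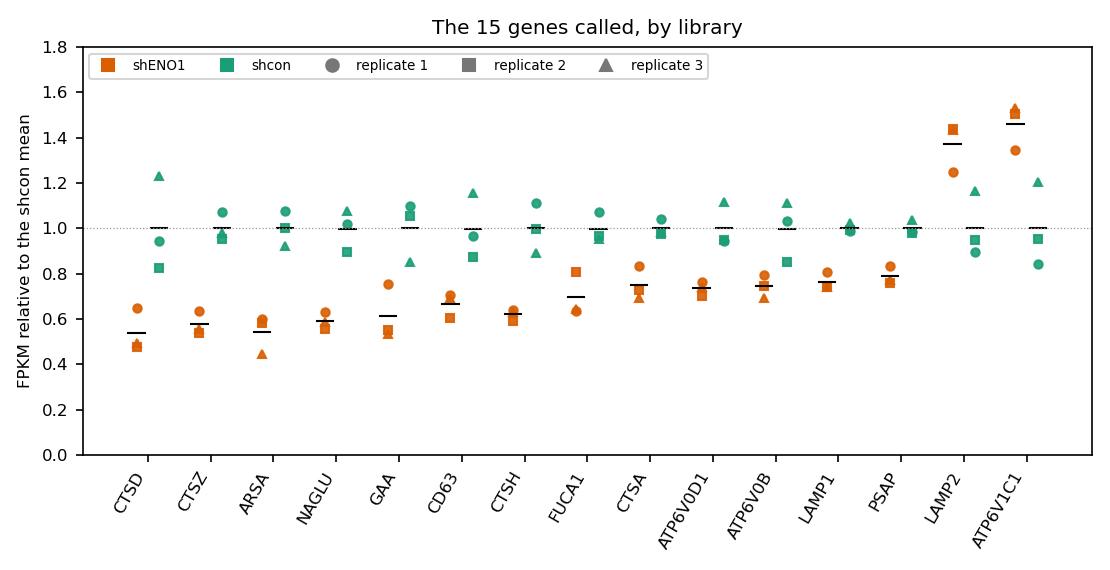
FPKM of each library divided by the mean of the 3 shcon libraries (y axis) for the 15 genes called (x axis, from the lowest log2 fold change to the highest), with shENO1 libraries in orange on the left and shcon libraries in green on the right of each gene, a symbol for each replicate number and a black line for the mean. The groups do not overlap in any of the 15 genes, and the shENO1 means run between 0.538 for CTSD and 1.46 for ATP6V1C1.

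Of the 15 V-ATPase subunits 2 were lower (13.3%, near the 14.4% of all genes tested), 1 was higher (6.67%, against 15.1%) and 12 did not pass. Their median log2 fold change was -0.07. Whether the pump and the hydrolases differ was not tested. The 2 lower genes encode V0 subunits and the 1 higher gene a V1 subunit, and whether the 2 parts differ was not tested either. The 5 V0 subunits had fold changes below 0, though ATP6V0C had 0.25 without the trends, ATP6V0E1 0.04 under quantile normalization and ATP6V0A1 0.01 without shcon replicate 2. Their median was -0.39 and their median GC content 56.8%. Of the 8 V1 subunits 4 lay below 0 and 4 above, with a median of 0.04 and a median GC content of 43.9%, ATP6V1E1 being at -0.00. Over the 15 subunits the fold change had a Spearman correlation of -0.87 with GC content, again as a description. Without the trends none was called, and the medians were -0.12 for V0 and -0.05 for V1.

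ATP6V0D1, the subunit that joins the V0 part to the central stalk, was at 7.85, 7.21 and 7.64 FPKM in shENO1 cells, against 9.72, 9.78 and 11.5 FPKM in shcon cells. The groups were separate (-0.40, standard error 0.10, adjusted p = 0.0192). ATP6V0B, a subunit of the ring that carries protons, was at 17.1, 16.1 and 15.0 FPKM in shENO1 cells, against 22.3, 18.4 and 24.0 FPKM in shcon cells (-0.39, standard error 0.11, adjusted p = 0.037). Without the trends the log2 fold changes were -0.25 for ATP6V0D1 (adjusted p = 0.187) and -0.08 for ATP6V0B (adjusted p = 0.548). Leaving out shENO1 replicate 2, shENO1 replicate 3 or shcon replicate 1 ended both calls, with adjusted p from 0.0527 to 0.0884 for ATP6V0D1 and from 0.113 to 0.128 for ATP6V0B, and leaving out shcon replicate 3 ended that of ATP6V0B alone (adjusted p = 0.053). ATP6V0C, the main subunit of the ring, had 2.51, 1.62 and 1.36 FPKM in shENO1 cells, against 2.25, 2.96 and 3.23 FPKM in shcon cells, with overlap (-0.44, adjusted p = 0.0883). These values rest on 30 to 76 fragments per library, and 1080 of its 1498 exon bases are shared with AC093525.2 and AC093525.1, so that its level is uncertain. ATP6V0E1 had 88.9, 86.9 and 92.9 FPKM in shENO1 cells, against 91.3, 90.5 and 124 FPKM in shcon cells (-0.17), and ATP6V0A1 had -0.06.

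ATP6V1C1, a V1 subunit whose counterpart in yeast controls the assembly of V1 with V0, was at 14.4, 16.1 and 16.4 FPKM in shENO1 cells, against 9.00, 10.2 and 12.9 FPKM in shcon cells. Each shENO1 library lay above each shcon library, and the mean was 1.46 times that in shcon cells (0.52, standard error 0.13, adjusted p = 0.0233). The log2 fold change was 0.13 without the trends (adjusted p = 0.237). The call was also lost when shENO1 replicate 2, shENO1 replicate 3, shcon replicate 1 or shcon replicate 2 was left out, with adjusted p from 0.0666 to 0.0879. ATP6V1A, the catalytic subunit, was at 26.5, 30.5 and 31.0 FPKM in shENO1 cells, against 22.9, 23.0 and 27.8 FPKM in shcon cells (0.25, adjusted p = 0.122). Its partner in the ATP-binding head, ATP6V1B2, had 6.0, 7.02 and 6.47 FPKM in shENO1 cells, against 5.74, 5.57 and 6.97 FPKM in shcon cells (0.08), and the regulatory subunit ATP6V1H had 8.02, 8.12 and 8.67 FPKM in shENO1 cells, against 6.57, 6.38 and 9.13 FPKM in shcon cells (0.16). In all 3 of these subunits shcon replicate 3 lay apart from the other shcon libraries. The stalk subunits ATP6V1D, ATP6V1E1, ATP6V1F and ATP6V1G1 had log2 fold changes of -0.07, -0.00, -0.29 and -0.15, and the accessory proteins ATP6AP1 and ATP6AP2 of -0.09 and 0.13, and 0 of these 6 was called by limma, by limma-voom or at an unadjusted p under 0.05.

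One shcon library stood apart for the pump. Shcon replicate 3 was the highest of the 6 libraries for 10 of the 15 V-ATPase subunits (66.7%) and for 12 of the 28 hydrolases and cofactors (42.9%), against 18.6% of all genes tested. The median deviation of the V-ATPase subunits from their means over 6 libraries was -0.03, -0.06 and -0.02 in shENO1 libraries and -0.09, -0.11 and 0.35 in shcon libraries. Summed, the 15 subunits were at 321, 317 and 330 FPKM in shENO1 libraries and at 313, 313 and 412 FPKM in shcon libraries. Without shcon replicate 3 the median log2 fold change of the V-ATPase was 0.02, and 3 subunits were called higher and 1 lower: ATP6V1A (adjusted p = 0.0263) and ATP6V1H (adjusted p = 0.0237) joined ATP6V1C1, and ATP6V0D1 remained lower. Over all lysosomal genes 6 were then higher and 15 lower. Of all 15181 genes tested 3028 were higher and 2799 lower in the same fit. The libraries also differed in base composition: in the tenth of genes with the highest GC content the median deviation was -0.03, -0.39 and -0.42 in shENO1 libraries and 0.39, 0.29 and 0.16 in shcon libraries, so that shENO1 replicate 1 and shcon replicate 3 lay nearest to each other. Leaving out both, a choice made after seeing the data, gave 21 lysosomal genes lower and 10 higher, against 3590 lower and 3595 higher of all 15181 genes. Of the lysosomal genes, 14 lower and 3 higher were hydrolases or cofactors, and 4 lower and 5 higher were V-ATPase subunits. ATP6V1E1 was then called higher at 0.21 (adjusted p = 0.029), against -0.00 with all libraries. Leaving out any 1 of the other libraries gave 4 to 17 lysosomal genes lower and 0 to 3 higher, with 6 lower and 0 higher without shENO1 replicate 3 and 11 lower and 0 higher without shcon replicate 2. Over all genes these fits gave 756 to 2344 lower and 753 to 2171 higher.

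**Figure D5:**
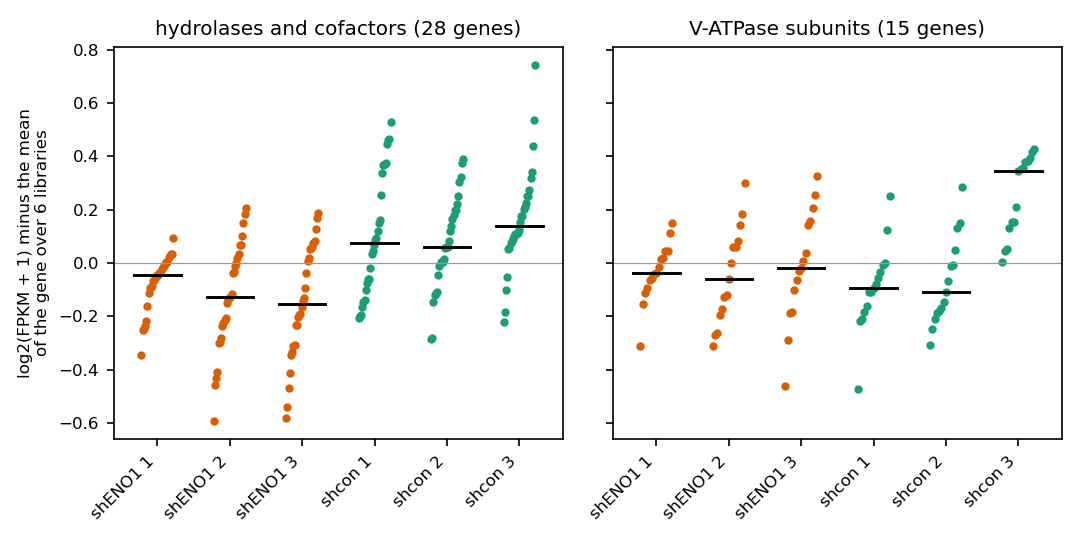
Deviation of log2(FPKM + 1) from the mean of the gene over 6 libraries (y axis) in each library (x axis, shENO1 in orange left of shcon in green), for the 28 hydrolases and cofactors and the 15 V-ATPase subunits, with 1 point for a gene and a black line for the median. The hydrolases have medians of -0.04, -0.13 and -0.15 in shENO1 and 0.08, 0.06 and 0.14 in shcon libraries, and the V-ATPase stands out in shcon replicate 3 with a median of 0.35.

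Several V-ATPase subunits are made from more than 1 gene, and most transcripts of the a subunit came from a gene outside the 51. TCIRG1 encodes the a3 form of this subunit, which makes the path of protons together with the ring. It was at 29.7, 23.5 and 19.1 FPKM in shENO1 cells, against 47.6, 46.8 and 34.1 FPKM in shcon cells. TCIRG1 was called lower (-0.81, adjusted p = 0.0165), though not without the trends (-0.28). TCIRG1 gave 80.9%, 76.3% and 73.2% of the summed FPKM of the a subunit genes in shENO1 libraries, against 88.7%, 86.6% and 83.0% in shcon libraries, while ATP6V0A1 gave 11.8%, 13.9% and 15.0% in shENO1 libraries, against 7.2%, 9.0% and 10.8% in shcon libraries. ATP6V0E2 was also called lower, at 3.93, 3.36 and 3.00 FPKM in shENO1 cells and 7.06, 5.57 and 6.96 FPKM in shcon cells (-0.76, adjusted p = 0.00612), and at -0.51 without the trends. The e subunit came mostly from ATP6V0E1, with means of 96.3% in shENO1 and 94.0% in shcon libraries, and the C, E, G and B subunits at 90.0% or more from ATP6V1C1, ATP6V1E1, ATP6V1G1 and ATP6V1B2 by the means of both groups.

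Beyond the 51 genes, 85 further genes of lysosomal function were looked up. They too were chosen with earlier results of these data known, so that they are no independent check. Of the 85, 80 were in the table and 69 were tested. Of these, 19 were lower (27.5%, against 14.4% of all genes tested), 5 were higher (7.25%, against 15.1%) and 45 did not pass, with a median log2 fold change of -0.14. With the replicate block 22 were lower and 9 higher, against 17.9% and 19.3% of all genes tested (37.1% in either direction). Without the trends 13 were lower and 0 higher, against 9.73% and 11.4%. Among 28 other hydrolases 10 were lower and 0 higher by limma (13 in either direction at an unadjusted p under 0.05, near the 43.0% of all genes), at a median of -0.18. The largest changes were those of the dipeptidyl peptidase DPP7, at 31.1, 20.4 and 22.2 FPKM in shENO1 cells and 61.8, 55.2 and 47.1 FPKM in shcon cells (-1.14, adjusted p = 0.00503), and of the acid sphingomyelinase SMPD1, at 7.76, 6.73 and 7.26 FPKM in shENO1 cells and 13.6, 13.6 and 16.1 FPKM in shcon cells (-0.90, adjusted p = 0.00308). Both stayed lower without the trends, at -0.43 and -0.48, unlike HYAL2, a hyaluronidase, and IDUA, the alpha-L-iduronidase, which had -0.69 and -0.68 with them and -0.31 and -0.02 without. The other membrane proteins and transporters had 2 lower and 1 higher of 16, namely the nucleoside transporter SLC29A3 at -0.59, the cation channel TPCN1 at -0.55 and the cholesterol exporter NPC1 at 0.40, which was at 14.8, 14.9 and 13.1 FPKM in shENO1 cells and 9.41, 10.5 and 11.8 FPKM in shcon cells. SLC29A3 and TPCN1 stayed lower without the trends, while NPC1 at 0.27 was not called. Of 10 genes that sort hydrolases by their mannose 6-phosphate tag 3 were lower, namely NAGPA, which uncovers the tag, at -0.51, the adaptor subunit AP1M1 at -0.46 and the phosphotransferase subunit GNPTG at -0.44, of which AP1M1 alone was called without the trends, NAGPA then having -0.14 and GNPTG -0.11. The receptors M6PR and IGF2R had 0.07 and 0.29 and did not pass, though IGF2R was called higher with the replicate block. Of 14 further V-ATPase genes 4 were lower, TCIRG1, ATP6V0E2, ROGDI at -0.53 and CCDC115 at -0.42, and 4 were higher, DMXL2 at 0.83, NCOA7 at 0.47, VMA21 at 0.45 and DMXL1 at 0.45. DMXL1, DMXL2 and ROGDI belong to a complex that brings V1 and V0 together, and VMA21 and CCDC115 help to assemble the V0 part. Without the trends none of these 4 higher genes was called, with 0.40 for DMXL2, 0.09 for NCOA7, 0.08 for VMA21 and -0.08 for DMXL1. Of the 4 lower genes, ATP6V0E2 at -0.51 and CCDC115 at -0.33 stayed lower, while TCIRG1 at -0.28 and ROGDI at -0.01 were not called.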

How the data were processed

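The FPKM table deposited by the authors gives 30716 genes by Ensembl identifier, with positions on GRCh38 and 1 FPKM value for each library. The submitters' processing notes name cutadapt, featureCounts and MultiQC without versions. Which aligner, gene annotation and FPKM program were used is not given in the sources used here. FPKM divided by the value of 1 fragment gave whole numbers, within 0.05 fragments, for 94.2% to 94.6% of values up to 100 fragments. Fragments of CTSZ could not be recovered in this way.

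The comparison of shENO1 with shcon used limma 3.58.1 (in R 4.3.3, with lmFit, then eBayes with a variance trend) on log2(FPKM + 1). It covered the 15181 genes that averaged 0.5 FPKM or more, with Benjamini-Hochberg adjustment of p over them. The threshold was an adjusted p of 0.05. Confidence intervals are those of limma, and fragment numbers cover counting error only. For 15031 of these genes (99.01%), GENCODE 29 gave GC content and exon length. Their trends were fitted in each library on 7356 genes, as natural splines with 4 degrees of freedom. Equally numbered libraries deviated together from their group means, with correlations of 0.230, 0.118 and 0.256 over genes. The labels do not describe the numbers as pairs, and the block with the replicate number was an alternative. Other alternatives were pseudocounts of 0.1 and 0.5 FPKM, no filter, a minimum of 5 FPKM, eBayes with no trend and robust eBayes, quantile normalization, median-of-ratios scaling, leaving out each library and, chosen after seeing the data, limma-voom on recovered fragments and leaving out 2 libraries together. Tables and figures were made in Python 3.11.15 (pandas 2.3.3, numpy 2.4.6, matplotlib 3.10.9).

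The 51 genes and the further lists were chosen with earlier results of these data known. All of the 51 are accounted for, and each further list is shown by its called genes of largest fold change, 4 at most. The further V-ATPase genes are an exception, with all 4 lower and 4 higher genes named. M6PR, IGF2R and MITF are given besides, named after their values were seen.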

Additional observations from a re-analysis of the deposited data

How the results depend on the processing

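Between 0 and 2 of 50 lysosomal genes changed their call under either smaller pseudocount, either other eBayes setting, median-of-ratios scaling or quantile normalization. The replicate block gave 16 lower and 2 higher of 50, against 17.9% lower and 19.3% higher of all genes tested. It kept all 15 calls and added MCOLN1, GUSB and MAN2B1. Limma-voom gave 15 lower and 2 higher of 49, against 2476 lower and 2701 higher of 15174 genes in all. A minimum of 5 FPKM left 42 genes, and the median log2 fold change of the hydrolases and cofactors was -0.25. With no filter 1402 genes were higher and 1302 lower in all, 0 lysosomal genes were higher and 10 lower, with LAMP2, GAA, PSAP, ATP6V0B and ATP6V1C1 lost, and of the V-ATPase 0 were higher and 1 lower, over 30716 genes tested. Without the GC and length trends the lysosomal calls were 1 higher and 7 lower, against 11.4% and 9.73% of all genes. Of these, 5 hydrolases and cofactors were lower, and 0 V-ATPase subunits were higher and 0 lower. With the replicate block added, 1391 genes were lower in all, 1 lysosomal gene was higher and 5 lower, 2 hydrolases and cofactors were lower, and of the V-ATPase 0 were higher and 1 lower (ATP6V1D). Without both shENO1 replicate 1 and shcon replicate 3 there were 3595 genes higher and 3590 lower in all, 10 and 21 lysosomal genes, 3 and 14 hydrolases and cofactors, and 5 and 4 V-ATPase subunits. The sign of the log2 fold change turned under at least 1 alternative for 1 of the 15 called genes, PSAP under quantile normalization (0.01), and for 22 of the 35 that did not pass, among them ATP6V1E1 with these 2 libraries left out (0.21), TFEB (0.13) and ATP6V0C (0.25) without the trends. The cause was not tested.

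Leaving out each library in turn gave 753 to 3028 genes higher and 756 to 2799 lower in all, 0 to 6 and 4 to 17 lysosomal genes, 0 to 2 and 4 to 11 hydrolases and cofactors, and 0 to 3 and 0 to 3 V-ATPase subunits. The medians ran from -0.22 to -0.15 for hydrolases and cofactors and from -0.12 to 0.02 for the V-ATPase, with 0.02 without shcon replicate 3. With 3 libraries against 3, an exact permutation test of a single gene cannot give less than p = 0.1. Depth limits ATP6V0C and CLN3 most, at 30 to 76 and 19 to 42 fragments per library.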
